A study of Homo sapiens with 3 samples.

Results

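The small nucleolar RNAs (snoRNAs) and small Cajal body RNAs (scaRNAs) were examined in HT29, an established human colon adenocarcinoma cell line, grown on 3 substrates. Members were chosen by name: every probe that is not a control and whose accession belongs to a gene with a symbol starting with SNORD, SNORA or SCARNA, antisense genes excluded. This gave 321 of the 50599 different probes of the array, for 315 of the 21614 genes with a matched symbol. They comprised 196 SNORD probes (193 genes), 102 SNORA probes (100 genes) and 23 SCARNA probes (22 genes). The cells came from tissue culture polystyrene plates (TCP), chitosan membranes (CS) or chitosan membranes grafted with hyaluronan (CSHA), with no other treatment named and no culture time in the labels. For each condition 1 single-colour array was hybridized with total RNA, which leaves every difference without replicates and without a p-value. Differences on CS and on CSHA share the TCP array. Since these are bulk samples, fewer cells with an RNA and less RNA per cell cannot be told apart.

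Box C/D snoRNAs, named SNORD, guide the methylation of ribose in ribosomal RNA, and box H/ACA snoRNAs, named SNORA, guide the change of uridine to pseudouridine. The scaRNAs, named SCARNA, carry either or both kinds of box and guide the same modifications of spliceosomal RNAs in Cajal bodies. Most human snoRNAs are cut out of introns of host genes, many of which encode ribosomal proteins, translation factors or nucleolar proteins, and others of which, such as the SNHG genes, are non-coding. Each works in a particle with a fixed set of proteins. The mature RNAs have no poly(A) tail, whereas the labelling kit named for these arrays primes from poly(A), so which molecule gave a probe's signal, a mature snoRNA, a precursor or an intron, cannot be told apart.

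A level is given here as the log2 processed signal of the probe minus the 75th percentile of its array, and a difference is that of 2 levels of the same probe. Differences were taken where the probe was well above background, by the flag of the scanner software, on both arrays. All 3 arrays were of 1 slide and 1 scan, and the share of all probes well above background was 48.6% for TCP, 51.1% for CS and 49.9% for CSHA. The signal at the 75th percentile was between 337 (CSHA) and 423 (CS). Each member probe had 1 spot. For probes printed at least 5 times, the spread among spots gave a difference between CS and TCP an SD of 0.24 at levels below -2, 0.11 from -2 to 0, 0.07 from 0 to 2 and 0.06 above 2, which does not include differences between cultures. Of the markers of colon epithelium, 9 of 9 were well above background on every array.

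Nearly the whole H/ACA class was measured, while the C/D class was not. Of the 102 SNORA probes, 99 were well above background on all 3 arrays, as were 21 of the 23 SCARNA probes. Of the 196 SNORD probes, 111 were above background on all 3 arrays, 12 on some and 73 on none. The dim SNORD probes lay mostly in the imprinted clusters. Outside the families SNORD113 to SNORD116, 114 of 134 SNORD probes were above background on TCP, 117 on CS and 111 on CSHA.

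SNORD115 and SNORD116 are tandem families of an imprinted region of chromosome 15, expressed from the paternal copy mainly in neurons, and SNORD113 and SNORD114 are their counterparts in an imprinted region of chromosome 14. None of the 11 SNORD116 probes was well above background on any array, with TCP levels of -6.19 to -4.93, CS levels of -6.60 to -5.19 and CSHA levels of -6.21 to -4.34. Of the 13 SNORD115 probes, 1 was above background on TCP, 2 were on CS and 0 were on CSHA. The SNORD115-5 probe stood at -1.76 on TCP, -2.56 on CS and -5.19 on CSHA, where it was not well above background, so that it was at least 2.14 log2 units lower on CSHA than on TCP. The SNORD115-4 probe was above background only on CS, at -3.02, against -5.00 on TCP and -5.90 on CSHA. Copies within a family are near-identical and could share signal, yet the other 11 SNORD115 probes were above background on no array.

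Of the 30 SNORD114 probes, 28 were above background on no array, and 7 of the 8 SNORD113 probes were too. SNORD114-28 had a level of -6.09 on TCP, -1.78 on CS and -6.09 on CSHA on one of its probes, a difference of at least 2.10 on CS, and its second probe was above background on no array. SNORD113-8 had levels of -6.10, -2.33 and -6.10, at least 1.55 higher on CS. SNORD114-12 went the other way, with levels of -2.55 on TCP, -6.46 on CS and -6.04 on CSHA, at least 1.78 lower on CS and at least 1.35 lower on CSHA. In each of these families the probes that stood out were single spots on 1 or 2 arrays. Outside them, SNORD42A was at least 1.54 higher on CS, from levels of -4.60, -2.34 and -4.80. Of the neuronal markers, RBFOX3, SNAP25 and MAP2 were well above background on all 3 arrays and SYT1 and GAP43 on none, and the part of such markers in these levels was not tested. The summed level of the 5 neuronal markers was 2.35 for TCP, 2.44 for CS and 2.29 for CSHA (log2).

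**Figure D1:**
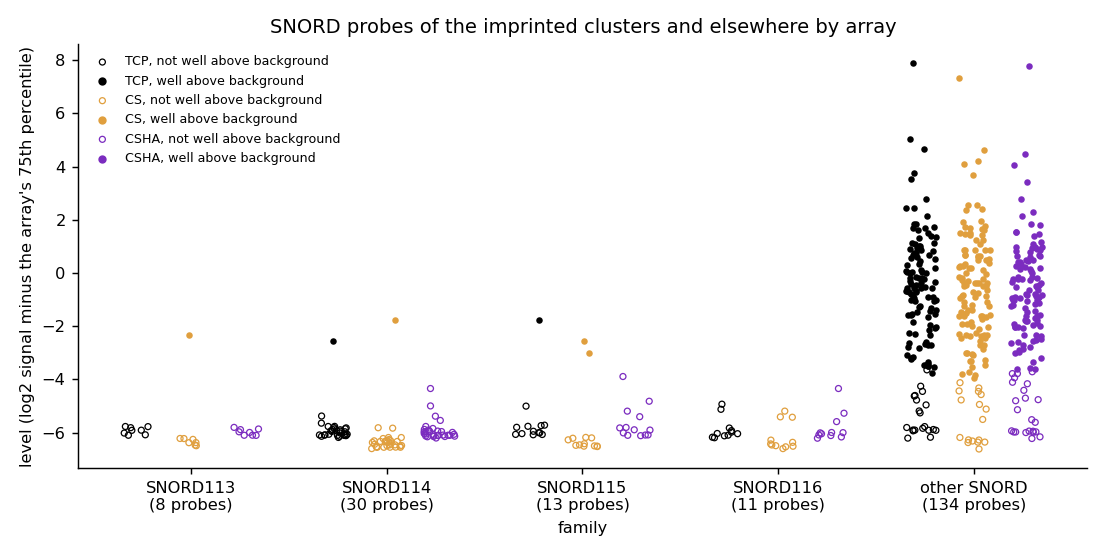
Levels of SNORD probes (log2 signal minus the array's 75th percentile, vertical axis) by family and by array, 1 point a probe, filled where the probe was well above background. Nearly all probes of SNORD113 to SNORD116 lie near -6 on every array, and most of the 134 other SNORD probes lie above them.

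As a class, the H/ACA snoRNAs had lower medians on both membranes than on TCP, more so than the box C/D snoRNAs. On CS this did not hold for the 20 SNORA probes with mean levels from 2 to 9. The CSHA median of SNORA reached 0.00 when arrays were scaled to spike-in probes. Without a filter on dim probes the CS medians of SNORA and SNORD were -0.25 and -0.23. On CS the median difference from TCP was -0.25 for 99 SNORA probes, -0.10 for 114 SNORD probes and -0.02 for 22 SCARNA probes, against 0.01 for all 23671 probes measured. SNORA probes were lower than on TCP in 72 of 99 cases, SNORD probes in 69 of 114 and SCARNA probes in 12 of 22, where 48.4% of all probes were lower. Copies of a family were counted separately here and could share signal. SNORA70 and SNORA70B to SNORA70G all differed by -0.35 to -0.23 on CS, and the SNORA70G value was the class median. Their CSHA differences were -0.97 to -0.78, apart from SNORA70F at -0.20. Class medians with 1 value a family were not taken. On CSHA the median was -0.43 for 99 SNORA, -0.29 for 111 SNORD and -0.21 for 21 SCARNA probes, against 0.10 for all 23330 probes. Lower values were seen in 82 of 99 SNORA, 83 of 111 SNORD and 13 of 21 SCARNA probes, where 40.7% of all probes were lower. Scaling to the spike-in probes raised every CSHA difference by 0.44. It turned the CSHA medians of SNORD and SCARNA to 0.15 and 0.23, while the median of all probes moved to 0.53, so that the classes were below the other probes by the same amounts. Relative to the median of all probes, the SNORA median on CSHA was -0.53 and ran from -0.53 to -0.41 over the alternative settings. On CS it was -0.26 and ran from -0.26 to -0.05, the last without a filter on dim probes. Of the 20 SNORA probes with mean levels from 2 to 9, 10 were lower on CS than on TCP. Their CS median was 0.06, against 0.05 for all probes at those levels. The SNORA median on CS was -0.23 at levels from 0 to 2, -0.34 from -2 to 0 and -0.52 below -2. On CSHA the same 20 probes had a median of -0.39.

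**Figure D2:**
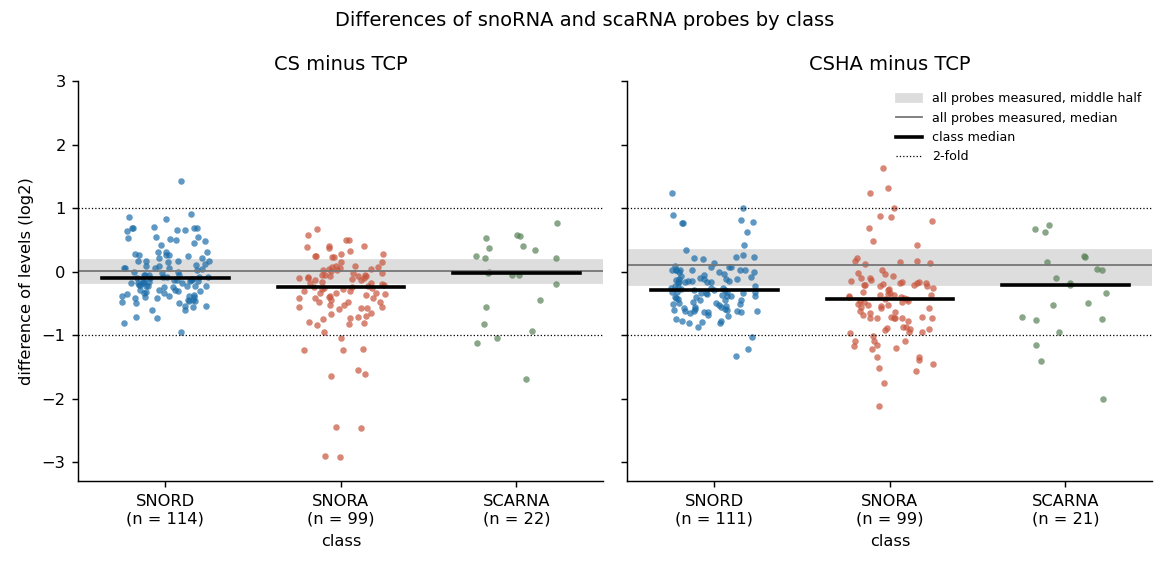
Difference of level from TCP (log2, vertical axis) of each SNORD, SNORA and SCARNA probe well above background on both arrays, on CS (left) and CSHA (right), with class medians as black bars and the range from the lower to the upper quartile of all probes in grey. The SNORA points reach down to -2.92 on CS, and the class medians on CSHA lie below the grey band or at its lower edge.

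Among SNORA probes on CS, 11 of 99 (11.1%) were at least 2-fold lower than on TCP and 0 were higher by that much, where 1.01% of all probes were at least 2-fold lower and 0.701% higher. For SNORD the numbers were 0 lower and 1 higher of 114, and for SCARNA 3 lower and 0 higher of 22. On CSHA, 16 of 99 SNORA probes (16.2%) were at least 2-fold lower and 4 were higher, against 3.57% and 2.15% of all probes. For SNORD, 3 of 111 were lower and 2 higher, a share near that of all probes, and for SCARNA 3 of 21 were lower and 0 higher. With the spike-in scaling, the members at least 2-fold lower on CSHA numbered 6 instead of 22, and those higher 19 instead of 6. That scaling raised every difference on CSHA by 0.44, and the share of all probes past 2-fold under it was not taken. In all, 32 member probes for 30 genes were at least 2-fold from TCP on CS or CSHA. Of these, 9 SNORA probes (8 genes) and 2 SCARNA probes were at least 2-fold lower on both membranes, where 0.483% of all probes were. Both comparisons use the TCP array.

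**Figure D3:**
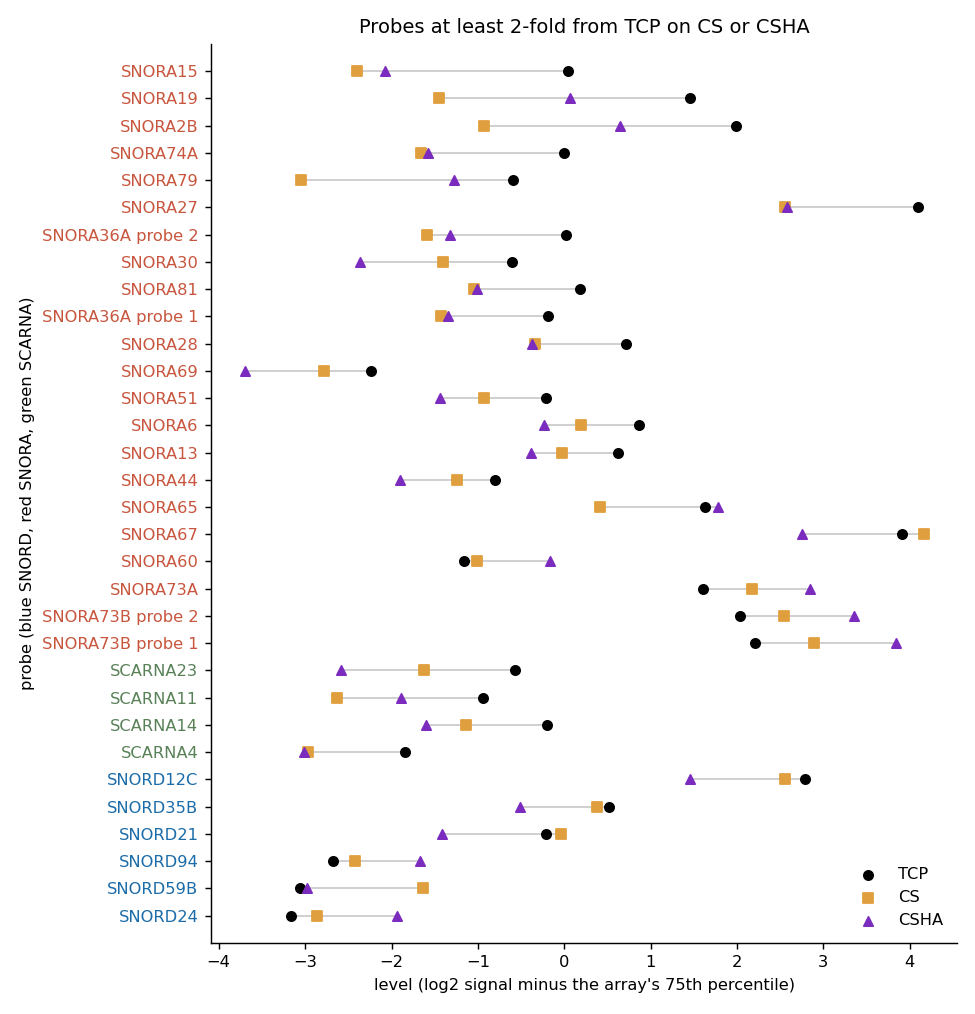
Levels (log2 signal minus the array's 75th percentile, horizontal axis) on TCP, CS and CSHA of the 32 probes at least 2-fold from TCP on CS or CSHA, 1 row a probe. Most red SNORA rows have the TCP point at the right end, and the SNORA73A and SNORA73B rows have it at the left end.

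The lowest differences on CS belonged to SNORA2B and SNORA19, H/ACA snoRNAs encoded within KANSL2 and EIF3A. SNORA2B had levels of 1.99 on TCP, -0.93 on CS and 0.64 on CSHA, differences of -2.92 and -1.35. SNORA19 had levels of 1.45, -1.45 and 0.06, differences of -2.90 and -1.39. Both were lowest on CS, with CSHA in between. SNORA79, within GTF2A1, had the same order, with levels of -0.59, -3.05 and -1.27. Its difference on CS was -2.46 and lay between -2.51 and -1.47 over the alternatives.

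SNORA2B is 1 of 3 related snoRNAs spanned by KANSL2, a subunit gene of a chromatin complex. SNORA2A had levels of -1.67 on TCP, -1.97 on CS and -2.15 on CSHA, differences of -0.31 and -0.48. SNORA2C had levels of 2.23, 2.48 and 1.4996, differences of 0.25 and -0.73. The brighter of the 2 probes for KANSL2 itself differed from TCP by -0.07 on CS and -0.15 on CSHA, and the dimmer by -0.34 and -1.13. The 3 probes of this locus therefore gave differences on CS that lay 3.16 log2 units apart from lowest to highest.

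SNORA15, SNORA27, SNORA28, SNORA36A, SNORA74A and SNORA81 were lower by similar amounts on both membranes. SNORA15, within CCT6A, had levels of 0.05 on TCP, -2.40 on CS and -2.07 on CSHA. SNORA27, within the ribosomal protein gene RPL21, had levels of 4.10, 2.55 and 2.58, differences of -1.54 and -1.51. The CS and CSHA values of SNORA27 were 0.03 apart, within the spread among spots. SNORA74A, which is spanned by SNHG4 and MATR3, had levels of -0.01, -1.66 and -1.58. SNORA28, within EIF5, had levels of 0.71, -0.34 and -0.37, and SNORA81, within EIF4A2, had levels of 0.18, -1.05 and -1.01. For all 6 the TCP level was the highest of the 3 under every setting run.

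SNORA36A lies in DKC1, which encodes the pseudouridine synthase of the H/ACA particle itself, and had 2 probes. The first had levels of 0.02 on TCP, -1.59 on CS and -1.32 on CSHA, differences of -1.61 and -1.34. The second had levels of -0.19, -1.43 and -1.35, differences of -1.24 and -1.16, so both probes were at least 2-fold lower on both membranes. Its relative SNORA36B, within RAB3GAP2, was well above background only on TCP, at -3.39, and was at least 0.93 lower on CS and at least 0.50 lower on CSHA. The probes of such relatives could share signal. The 2 probes matched to DKC1 disagreed. The brighter, at 6.01 on TCP, differed from TCP by 0.04 on CS and 0.09 on CSHA. The dimmer, at 0.80 on TCP, differed by -0.87 and -1.05. In the array's probe numbering the dimmer stands between the probes of SNORA55 and SNORA58. Whether it measured the DKC1 mRNA or a snoRNA of that locus was not tested.

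RefSeq lists microRNA hairpins that overlap 7 of the member genes, and these are the stretches of member sequence that could be printed here. An H/ACA RNA ends in the box ACA followed by 3 more bases. Of the 7 hairpins, 4 run through that end of the RefSeq gene and that of SNORA36A stops 3 bases short of it, and in these 5 the letters ACA stand 3 bases before the end of the gene. The sequences below are shown for 4 of those 5 members and for SNORA81, since they include members lower on both membranes and others that were not. They are RefSeq hairpins of GRCh38.p14, 5′ to 3′, with the box ACA in capitals where the hairpin holds it.
SNORA36A (hairpin MIR664B, chrX:154768596-154768656, plus strand): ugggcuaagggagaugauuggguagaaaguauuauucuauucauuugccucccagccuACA
SNORA36B (hairpin MIR664A, chr1:220200538-220200619, minus strand): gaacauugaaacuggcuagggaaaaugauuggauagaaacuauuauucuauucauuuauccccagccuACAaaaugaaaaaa
SNORA84 (hairpin MIR3651, chr9:92292458-92292547, minus strand): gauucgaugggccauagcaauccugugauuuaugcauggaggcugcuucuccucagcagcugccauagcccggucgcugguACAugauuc
SCARNA16 (hairpin MIR6516, chr17:77089417-77089497, plus strand): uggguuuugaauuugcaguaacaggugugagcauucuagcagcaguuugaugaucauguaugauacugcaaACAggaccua
SNORA81 (hairpin MIR1248, chr3:186786672-186786777, plus strand): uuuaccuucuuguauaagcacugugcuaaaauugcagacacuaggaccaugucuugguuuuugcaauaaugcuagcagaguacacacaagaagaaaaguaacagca

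The SNORA81 hairpin lies in the 5′ part of that RNA, with 102 of its 106 bases inside the gene, so it does not hold the end. SNORA84, within IARS1, had levels of 0.14 on TCP, -0.05 on CS and 0.13 on CSHA. It was thus within 0.19 of TCP on both membranes. SCARNA16, spanned by SEC14L1 and SNHG20, had levels of 2.22, 2.62 and 1.46 on its first probe and 2.27, 2.80 and 1.52 on its second. Both of its probes were highest on CS and lowest on CSHA. The remaining hairpin at a 3′ end belongs to SCARNA3, whose levels were -0.23, -1.05 and -0.94, and the other 5′ hairpin to SNORA2C.

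Other SNORA probes passed 2-fold on 1 membrane. SNORA65, within RPL12, had levels of 1.63 on TCP, 0.42 on CS and 1.78 on CSHA, lower on CS alone. SNORA30 (levels of -0.61, -1.41 and -2.36), SNORA69 (-2.24, -2.79 and -3.70) and SNORA51 (-0.22, -0.93 and -1.44) decreased in level from TCP to CS to CSHA. SNORA6, SNORA13 and SNORA44 did so too, with differences on CSHA of -1.10, -1.02 and -1.09. SNORA67, spanned by the translation factor gene EIF4A1, had levels of 3.91, 4.16 and 2.75, lower on CSHA alone.

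The U17 snoRNAs went against the median of their class, and on CSHA 17 of 99 SNORA probes in all were higher than on TCP. SNORA73A and SNORA73B, also called U17 or E1, are H/ACA RNAs known for a part in the cleavage of pre-ribosomal RNA rather than for guiding pseudouridine. SNORA73A had levels of 1.61 on TCP, 2.18 on CS and 2.85 on CSHA, differences of 0.57 and 1.24. The first SNORA73B probe had levels of 2.21, 2.89 and 3.85, differences of 0.67 and 1.63, and the second had levels of 2.04, 2.54 and 3.36, differences of 0.50 and 1.32. All 3 probes had the order TCP, CS, CSHA, and their sequences are close enough that they could share signal. The genes that span them, RCC1 and SNHG3, differed from TCP by 0.01 and -0.05 on CS and by -0.01 and -0.20 on CSHA. SNORA60, within SNHG11, was the remaining SNORA probe at least 2-fold higher on CSHA, with levels of -1.17, -1.01 and -0.16. Smaller positive differences on CSHA were those of SNORA71A to SNORA71D, from 0.48 to 0.88, while SNORA71E differed by -0.06.

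Of the box C/D members with a part in pre-ribosomal RNA processing, U3 and SNORD22 could be measured. The U3 copy SNORD3B-1 had levels of 7.88 on TCP, 7.32 on CS and 7.77 on CSHA on one probe and 5.05, 4.10 and 4.47 on the other. The 2 probes gave differences of -0.56 and -0.94 on CS and of -0.11 and -0.58 on CSHA, so U3 was highest on TCP by both, except on CSHA with the spike-in scaling, which turns the first probe's difference positive. SNORD22 (U22), within SNHG1, had levels of 1.33, 0.85 and 0.46.

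Box C/D members past 2-fold were few and had no common direction. SNORD12C, within ZFAS1, had levels of 2.78 on TCP, 2.55 on CS and 1.45 on CSHA, a difference of -1.33 on CSHA. SNORD21, spanned by RPL5, had levels of -0.21, -0.03 and -1.42, and SNORD35B had levels of 0.52, 0.38 and -0.51. SNORD24, within RPL7A, had levels of -3.17, -2.86 and -1.93, and SNORD94, within PTCD3, had levels of -2.68, -2.43 and -1.68, both highest on CSHA. SNORD59B, within ATP5F1B, had levels of -3.06, -1.63 and -2.97, higher on CS alone. The difference of SNORD59B on CS was 1.43, and 0.60 at the lowest over the alternatives. Those of SNORD24 and SNORD94 on CSHA were 1.23 and 1.01, and 0.35 and 0.57 at the lowest. The CS difference of SNORD24, 0.31, turned negative with normexp background correction and in the deposited values. The last 3 were dim probes, where the spread among spots was widest.

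Among the box C/D members with the highest levels, SNORD86 had levels of 4.67 (TCP), 4.62 (CS) and 4.06 (CSHA), and SNORD104 had 3.75, 3.69 and 3.43. SNORD26 had levels of 3.53, 4.22 and 2.78, highest on CS and lowest on CSHA. Among H/ACA members, SNORA16A had levels of 5.09, 5.46 and 4.68, SNORA57 had 4.29, 4.16 and 3.73, SNORA61 had 3.98, 3.57 and 3.44, and SNORA10 had 3.30, 3.20 and 2.94. SCARNA22, with the highest mean level among scaRNAs, had levels of 4.45, 4.79 and 4.24. In all 8 of these the CSHA level was the lowest of the 3, with differences from TCP between -0.75 and -0.21. Each of these differences was positive or nearer to 0 with the spike-in scaling. Not all members with high levels had this order. SNORD3B-1, with the highest SNORD level on each array, was lowest on CS by both of its probes. SCARNA9, with levels of 1.55, 2.31 and 2.18, was lowest on TCP.

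Between CSHA and CS, all 3 class medians were below that of all probes. The median of CSHA minus CS was -0.24 over 111 SNORD probes, with 81 lower, -0.11 over 99 SNORA probes, with 57 lower, and -0.13 over 21 SCARNA probes, with 14 lower. The median of all 24134 probes was 0.08, and 40.2% of them were lower. With the spike-in scaling the class medians were 0.15, 0.27 and 0.25, against 0.46 for all probes. The order of SNORD and SNORA depended on the setting, with medians of -0.0972 and -0.0758 with normexp, -0.0813 and -0.0686 in the deposited values and -0.0276 and -0.0846 without a filter on dim probes. At least 2-fold lower on CSHA than on CS were 7 SNORD, 2 SNORA and 2 SCARNA probes, and 0 SNORD, 4 SNORA and 0 SCARNA probes were higher, where 1.54% of all probes were lower and 1.58% higher. The 7 SNORD probes were those of SNORD105B, SNORD12C, SNORD15A, SNORD21, SNORD26, SNORD46 and SNORD59B, with differences from -1.48 to -1.05. SNORD105B had levels of 1.71 (TCP), 2.39 (CS) and 0.91 (CSHA). The 4 SNORA probes were those of SNORA79, SNORA2B, SNORA19 and SNORA65, with differences of 1.78, 1.57, 1.51 and 1.36. All 4 were at least 2-fold lower on CS than on TCP, and both comparisons use the same CS spot of each probe.

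The scaRNAs split by length. RefSeq gene lengths had a median of 76 nucleotides for SNORD, 134 for SNORA and 187 for SCARNA probes. A limit of 200 nucleotides was chosen after the values were seen. The 10 scaRNAs longer than that, 266 to 421 nucleotides, include RNAs with both kinds of box such as SCARNA10 (U85). Their differences had a median of 0.23 on CS, from -0.19 to 0.76, and 0.19 on CSHA, from -0.19 to 0.74. The 12 measured probes of shorter scaRNAs had a median of -0.50 on CS, from -1.69 to 0.53, and the 11 on CSHA had a median of -0.74, from -2.01 to -0.21. Every scaRNA probe at least 2-fold lower than on TCP was among the shorter ones. Over the 21 probes measured on CSHA, length and difference had a Pearson correlation of 0.82 and a Spearman correlation of 0.81, and over the 22 on CS these were 0.58 and 0.54. The probes share their arrays and some sequence, so these are descriptions. Names starting with A_21 belonged to most probes of the shorter scaRNAs and to none of the longer ones. Length and probe design therefore cannot be told apart here, and the kinds of box were not compared.

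SCARNA23, within POLA1 and 130 nucleotides long, had levels of -0.58 on TCP, -1.62 on CS and -2.59 on CSHA. SCARNA11 (137 nucleotides) had levels of -0.94, -2.63 and -1.89, and SCARNA14 (137 nucleotides) had -0.20, -1.14 and -1.60. SCARNA4, within KHDC4, had levels of -1.85, -2.97 and -3.01. Of the long scaRNAs, SCARNA9 (353 nucleotides) had levels of 1.55, 2.31 and 2.18, SCARNA2 (420 nucleotides) had -2.11, -1.52 and -1.37, and SCARNA17 (421 nucleotides) had 1.06, 1.28 and 1.73. These 3 were lowest on TCP. Within the SNORA class the 96 probes up to 200 nucleotides and the 6 longer ones had medians of -0.25 and 0.15 on CS and of -0.45 and 0.69 on CSHA, the latter 6 including the 3 SNORA73 probes. The Spearman correlation with length was 0.04 on CS and 0.10 on CSHA over the 99 measured SNORA probes, and 0.03 and -0.07 over the SNORD probes.

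**Figure D4:**
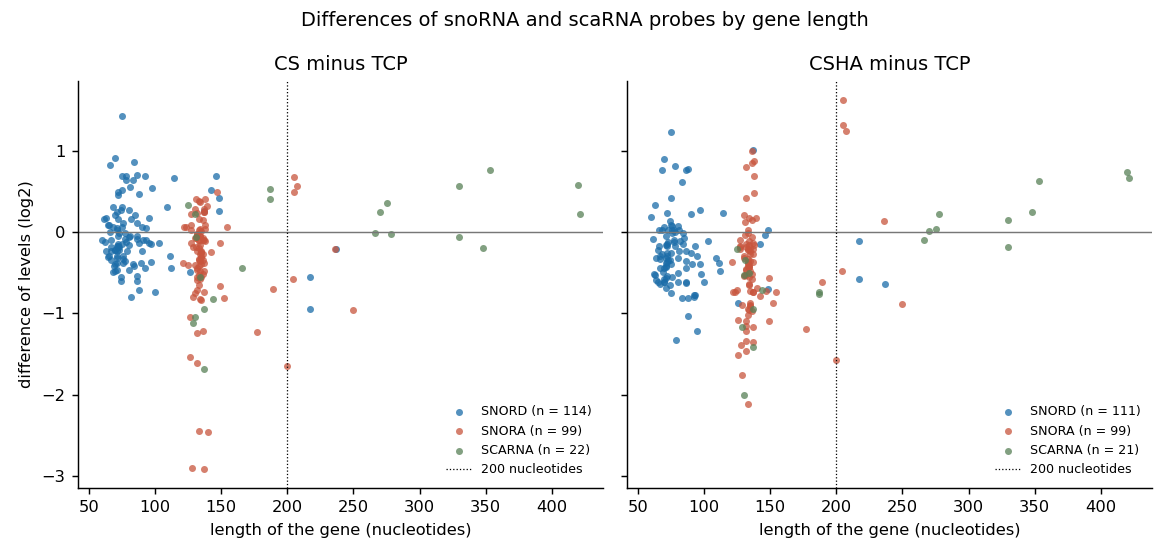
Difference of level from TCP (log2, vertical axis) against RefSeq gene length in nucleotides (horizontal axis) on CS (left) and CSHA (right), 1 point a probe. The green SCARNA points right of the dotted line at 200 nucleotides lie between -0.19 and 0.76, and those left of it reach down to -2.01.

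By the brightest probe of each host, the differences of snoRNAs did not track those of the genes that span them. Of the 315 genes, 278 were spanned by 1 protein-coding or lncRNA gene (137 different hosts), 32 by more than 1 and 5 by none. On CS, 79 SNORA probes had a median difference of -0.26, and their 59 measured hosts had a median of 0.04. SNORA probes lay below their host in 57 of 79 pairs on CS and in 63 of 79 on CSHA, where the medians were -0.48 and 0.06. SNORD probes lay below their host in 54 of 96 pairs on CS and in 65 of 94 on CSHA, with medians of -0.28 and 0.12 on CSHA. By its brightest probe, none of the hosts of members at least 2-fold lower was itself at least 2-fold lower than on TCP, with 11 such hosts on CS and 17 on CSHA, a count near the 0.718% and 3.31% of all genes that were. By the lowest probe of each gene, a count added after the values were seen, 0 of 11 were on CS and 4 of 17 on CSHA (DKC1, KANSL2, NOP56 and RPSA), where 0.952% and 4.8% of all genes were. For DKC1 the lowest probe was the dimmer one, whose target was not tested. The brightest RPSA probe differed by -0.08 on CSHA, and its other probes by -1.05 to -0.49. Over all pairs, member and host differences had a Pearson correlation of -0.05 on CS (192 pairs) and -0.05 on CSHA (189 pairs). Many pairs share a host, some hold copies of a family such as SNORA70, and all share the arrays. Other probes of the hosts were not correlated with the members.

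**Figure D5:**
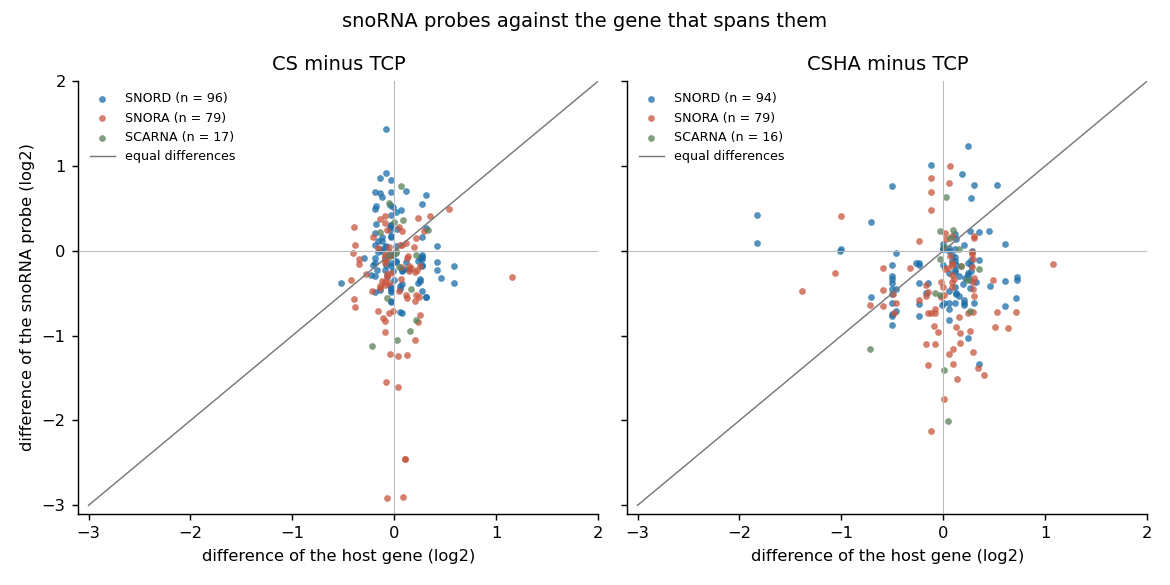
Difference of the snoRNA probe (vertical axis) against that of the single gene that spans it (horizontal axis), both log2 and from TCP, on CS (left) and CSHA (right), 1 point a pair. By their brightest probes, the hosts of most pairs lie near 0, while SNORA points spread downward to -2.92.

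Members of 1 host spread apart from each other. SNHG1, a non-coding host, holds 8 measured SNORD genes, and its own difference was -0.19 on CS and -0.50 on CSHA. Its SNORDs spanned -0.49 to 0.69 on CS and -0.87 to 0.76 on CSHA, where 7 of 8 were lower. GAS5, another non-coding host, differed by 0.27 on CS and 0.11 on CSHA, and its 8 SNORDs ran from -0.47 to 0.55 and from -0.61 to 0.19. TAF1D, with 6 SNORA and 2 SNORD genes, differed by -0.09 and 0.09, and its members by -0.82 to 0.33 and -0.43 to 0.17. All 4 members of SNHG12 and all 4 of NOP56 were lower on CSHA than on TCP, with medians of -0.52 and -0.65, and with the spike-in scaling every difference from TCP on CSHA is higher by 0.44.

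Many host genes of snoRNAs start with a C followed by pyrimidines, the start of the terminal oligopyrimidine tract known from ribosomal protein and translation factor genes. A C at the RefSeq start followed by 4 pyrimidines, read on the gene's strand at that position only, was found in 31 of 112 single hosts with a promoter sequence (27.7%), against 4.07% of all 35116 RefSeq promoters. The windows below were picked among hosts with such a start that hold members past 2-fold. They show 15 bases before the start in lower case and 15 bases from it in capitals (RefSeq, GRCh38.p14).
RPL21, host of SNORA27 (chr13:27251543-27251572, plus strand): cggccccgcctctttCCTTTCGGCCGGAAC
EIF4A2, host of SNORA81 (chr3:186783562-186783591, plus strand): gttgggcgccgctgtCTTTTCAGTCGGGCG
ZFAS1, host of SNORD12C (chr20:49278627-49278656, plus strand): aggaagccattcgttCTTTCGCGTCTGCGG
SNHG12, host of SNORA44 (chr1:28581859-28581888, minus strand): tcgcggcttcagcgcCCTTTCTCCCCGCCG

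SNORA probes in hosts with such a start had a median difference of -0.27 on CS (25 probes, 14 hosts) and those in other hosts -0.20 (45 probes, 37 hosts). On CSHA these medians were -0.41 and -0.58. At least 2-fold lower on CS were 3 of the 25 and 5 of the 45, where 1.01% of all probes were. On CSHA these were 5 of 25 and 6 of 45, where 3.57% of all probes were. Such members were thus found under both kinds of host start. SNORD probes had medians of 0.03 (30 probes) and -0.14 (55 probes) on CS and of -0.17 and -0.33 on CSHA.

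The genes for the proteins of the particles had medians near 0 by their brightest probes, while other probes of some of them were lower on CSHA. Of 23 such genes, 22 were measured on both CS and TCP, by the brightest probe with a median difference of 0.07 on CS and 0.03 on CSHA, against 0.04 and 0.12 for all genes. With the mean over the probes of a gene the median was 0.06 on CS and -0.14 on CSHA, against 0.03 and 0.09 for all genes. By the brightest probe and relative to TCP, 14 were higher and 8 lower in the CS cells, where 56.4% of all genes were higher and 43.6% lower. In the CSHA cells 11 were higher and as many lower, where 61.6% of all genes were higher and 38.4% lower. The C/D core proteins FBL, NOP56, NOP58 and SNU13 differed by -0.08 to 0.16 on both membranes by their brightest probes. The lowest of the 3 NOP56 probes gave -0.31 for CS and -1.07 for CSHA, and the second SNU13 probe gave -0.02 and -0.86. Of the H/ACA core, DKC1, NHP2 and NOP10 differed by -0.0042 to 0.29 by their brightest probes, with the second DKC1 probe lower as given above, and GAR1 had an outlier spot on TCP and no value there. RUVBL2, a helicase of the assembly machinery, was the only gene of the list at least 2-fold from TCP by its brightest probe, with levels of 4.53 on TCP, 4.28 on CS and 3.17 on CSHA. By any probe, DKC1 and NOP56 were too, both on CSHA, DKC1 by the dimmer probe whose target was not tested. The partner of RUVBL2, RUVBL1, had levels of 1.42, 1.20 and 0.63, and WRAP53, which brings scaRNAs to Cajal bodies, had -0.83, -1.06 and -1.61. All 3 were lowest on CSHA. NAF1, an assembly factor of H/ACA particles, had levels of -2.24, -1.81 and -1.31, highest on CSHA. SHQ1, another, had -1.13, -0.69 and -1.62.

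Of 21 non-coding host genes, 18 were measured, with a median difference of 0.10 on CS and 0.04 on CSHA, and 0 were at least 2-fold from TCP on either membrane, where 0.638% of all genes on CS and 1.98% on CSHA were at least 2-fold higher and 0.718% and 3.31% at least 2-fold lower. SNHG4 was the lowest on both, with levels of -0.20 on TCP, -0.47 on CS and -0.88 on CSHA. SNHG5 was the highest on CS, at 0.46 above TCP, and SNHG16 on CSHA, at 0.60 above TCP.

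Of the 6 genes with 2 probes, 4 were measured by both. Their probes differed from each other by 0.12 to 0.39 in the difference on CS and by 0.01 to 0.47 in that on CSHA, and in each of the 4 both probes had the same sign. The widest gap was that of SNORD3B-1 on CSHA.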

How the data were processed

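Total RNA of HT29 cells on TCP, CS or CSHA had been hybridized to 3 arrays in a single colour, 1 for each condition. The authors deposited the spot intensity of each array from the scanner software, together with its flags, and log2 values in a further table. Differences between arrays in the deposited log2 values equalled those of the log2 median signal up to 1 constant a pair, to within 1e-06 for 62976 of 62976 spots, and their medians were 0.01, -0.13 and 0.04, so the scale is known and the centring of each spot is not. Feature Extraction 10.7.3.1 stands in the file headers, where the methods name another version. The labels name an RNeasy kit and a low-input labelling kit, the methods TriPure reagent and a Quick Amp kit, and the labels also name limma.

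A floor of 1 was set on the processed signal (0 spots were below it), and the 75th percentile of the array, taken over all but the control probes, was subtracted on the log2 scale. Outlier-flagged spots were left out. Accessions were matched to symbols through RefSeq genes of GRCh38.p14, for 30004 of 50599 probes, and 20595 did not match. The files use an older build, so that table gave names, lengths and spans only. It has no strand, so a host was any protein-coding or lncRNA gene whose span holds the member's, on either strand, where the plan asked for the same strand. The brightest probe stood for a host or protein gene. A bound used, for the dim array, whichever was higher of the probe's own level and the lowest level well above background there. No test was made on single arrays, and members were counted at 2-fold. Named are the members with the highest levels in each class, all those past 2-fold, the largest bounds, the members with a part in ribosomal RNA processing, the imprinted families and members with 2 probes. The members and lists were chosen with earlier results of these data known. The calculation was tested on simulated arrays. Alternatives were quantile normalization, normexp (offset 50), other probes for the shift, the deposited values, no filter, 1 value a gene, other thresholds and the mean over probes. Tools were Python 3.11.15 with matplotlib 3.10.9, pandas 2.3.3 and numpy 2.4.6, and R 4.3.3 with limma 3.58.1.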

Additional observations from a re-analysis of the deposited data

How the results depend on the processing

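The 22 values recomputed were the class medians, the counts past 2-fold, the level of the SNORD115 and SNORD116 copies, and the protein and host medians. Over 11 alternatives they gave 167 values. Every median was held against the spread among spots at levels from -2 to 0, 0.11 to 0.12 for a difference. That spread belongs to the difference of a single probe, not to a median over many probes. At levels above 2 that spread was 0.06, so the limit was wide for bright genes. The protein median on CSHA went from 0.03 to -0.06 with quantile normalization and was counted as within it. Medians were compared without subtracting that of all probes. The SNORA median on CS without a filter on dim probes, -0.25, was thus counted as within the limit. Relative to all probes that SNORA median went from -0.26 to -0.05. The percentile of the copies was held against 2.44 points. By these limits 124 values stayed within (counts within 1.5 times) and 38 moved further. The other 5, which had lain further from 0 than the spread, changed sign. These 5 came from scaling to 7 spike-in probes: on CSHA against TCP, SNORD 0.15, SNORA 0.0035 and SCARNA 0.23, and against CS, SNORD 0.15 and SCARNA 0.25. That scaling raised all CSHA values alike, and the cause of the gap between the scalings was not tested. It also gave a SNORA median of 0.27 for CSHA minus CS, protein and non-coding host medians of 0.46 and 0.47 on CSHA, 6 members lower and 19 higher on CSHA than on TCP, and 4 lower and 15 higher on CSHA than on CS.

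Normexp gave 0 members at least 2-fold higher on CS, 14 lower and 3 higher on CSHA, a SNORD median of -0.10 for CSHA minus CS, and a median percentile of 22.2 for the SNORD115 and SNORD116 copies among all probes, against 17.1. The deposited values gave 0 higher on CS, 14 lower and 3 higher on CSHA, 7 lower on CSHA than on CS, and a SNORD median of -0.0813 there. They hold no levels, so the copies had no value. Without a filter on dim probes the SNORD medians were -0.23 on CS, -0.0886 on CSHA and -0.0276 for CSHA minus CS, and the SCARNA median was -0.34 on CSHA. The members higher were then 5 on CS and 11 on CSHA, and 19 were lower and 12 higher on CSHA than on CS.

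At 1.5-fold, 34 of 235 members were lower and 14 higher on CS, where 1093 and 676 of all 23671 probes were. On CSHA, 68 of 231 members were lower and 19 higher, where 2503 and 2308 of 23330 probes were. On CSHA against CS, 41 of 231 members were lower and 15 higher, where 1511 and 1781 of 24134 probes were. At 3-fold the members lower and higher were 7 and 0, 3 and 1, and 0 and 1. The share of all probes was not taken at 3-fold or for the counts under the other settings. Copies of a family such as SNORA70 were counted as separate members throughout, also with 1 value a gene. The mean over probes gave a protein median of -0.14 on CSHA. Besides the 5, another 10 medians that had lain within the spread changed sign, among them the SNORA median for CSHA minus CS, and the protein median on CSHA under 5 alternatives. All 32 probes past 2-fold kept their sign, in the comparison in which they passed, under the 5 alternatives that change a probe's value. Dim probes limit the C/D class, with 73 of 196 above background on no array. No paired analysis was possible because each condition has 1 array.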

Other observations

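Other short RNAs with a probe on the arrays were set beside the snoRNAs, a choice made after the values were seen. The snaR RNAs, short non-coding RNAs transcribed by RNA polymerase III, had 8 probes, of which 7 were well above background on all 3 arrays. All 7 were lower on both membranes than on TCP, by -1.42 to -0.83 on CS and by -1.36 to -0.58 on CSHA. SNAR-F was at 7.25 on TCP, at 5.83 on CS and at 6.04 on CSHA. SNAR-A3 had 10.14, 9.17 and 9.52. The copies are near-identical, so their probes do not count as separate RNAs. With the spike-in scaling, which raises every CSHA difference by 0.44, all 7 remained below TCP on CSHA.

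Spliceosomal RNAs had a median difference of -0.47 on CS and -0.39 on CSHA over 6 probes, with 5 of 6 lower on each (the CSHA median turns positive with the spike-in scaling), and 3 vault RNAs were lower on both by -0.88 to -0.22. RNU12, an RNA of the minor spliceosome, had levels of -1.35 on TCP, -3.20 on CS and -2.36 on CSHA. Longer non-coding RNAs, with lengths from 270 to 451 nucleotides, had no common direction. They are not snaR, spliceosomal or vault RNAs, so length and kind of RNA cannot be told apart here. RMRP had levels of 3.24, 3.81 and 3.58, RN7SK had 7.13, 7.53 and 6.85, RN7SL1 had 8.01, 7.78 and 8.39, RPPH1 had 1.64, 1.63 and 1.45, and TERC had 2.93, 2.89 and 2.90. Over the 16 measured probes of these RNAs up to 200 nucleotides the median was -0.80 on CS and -0.68 on CSHA, without the near-identical snaR copies it was -0.34 and -0.66 over 9 probes, and over the 5 longer ones it was -0.02 on both.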
